A study of Homo sapiens with 24 samples.

Results

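The genes that encode the subunits of the nuclear RNA polymerases I, II and III were followed through treatment of ovarian cancer cells with 5-FdU-ECyd. They are the protein-coding genes whose symbol starts with POLR1, POLR2 or POLR3, 33 of the 63299 genes in the table of counts. By polymerase, 6 belong to Pol I alone, 10 to Pol II alone and 10 to Pol III alone, 2 are shared by Pol I and Pol III, and 5 are shared by all of them. After 12 h with the drug, the genes of the large catalytic subunits of Pol I and Pol III and of the second-largest subunit of Pol II were down-regulated in both lines. POLR3GL and POLR2D were up-regulated, and the paralogs POLR3G and POLR3GL moved in opposite directions.

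RNA polymerase I makes the ribosomal RNA precursor in the nucleolus, RNA polymerase II makes messenger RNA, and RNA polymerase III makes transfer RNA, 5S ribosomal RNA and other short RNAs. In each enzyme the largest and the second-largest subunit form the catalytic centre, around which smaller subunits sit, some of them common to several polymerases and some particular to a stalk or an initiation module. 5-FdU-ECyd joins a fluorodeoxyuridine to ethynylcytidine (ECyd), which is known as an inhibitor of RNA polymerases.

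A2780 is a platinum-sensitive human ovarian cancer line and A2780cis its platinum-resistant counterpart, whose medium received 1 µM cisplatin for a passage at intervals. Cells of each line were left in standard medium (untreated) or given 1 µM 5-FdU-ECyd (treated) and were collected at 6 h or 12 h, which made 8 groups of 3 libraries. Both lines stand for single cell lines, and A2780cis carries its history of cisplatin into its untreated group as well. The study calls the 3 libraries of a group biological triplicates, but the labels do not say that they came from separate cultures, so p-values measure the spread between these libraries, which may be technical.

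The 24 libraries held between 11077368 and 21901406 counts on genes, and all 33 polymerase genes passed the filter on low counts, with between 55 and 6887 counts in a library. Levels are given as CPM (counts scaled to a common library total) after TMM normalisation, and a change as the log2 fold change (log2 FC) of treated over untreated cells with its standard error. CPM is a share of a library, so neither the number of cells nor the total RNA per cell shows in it. A gene called up- or down-regulated was higher or lower relative to the other RNAs of its library. Its amount per cell was not measured, and a share can rise while that amount falls. Tests were made with edgeR (quasi-likelihood), their p-values adjusted by Benjamini and Hochberg's method over 20240 genes, and a gene was called at 0.05. The 8 epithelial markers summed to between 2.09 and 35.8 CPM. Of these, KRT18 held between 0.718 and 28.4 CPM, KRT8 between 0.574 and 6.80 CPM and EPCAM between 0.0730 and 1.96 CPM. KRT19, CDH1, PAX8, WT1 and MUC16 stayed at or below 0.291 CPM in every library, so these latter markers were near absent. The leukocyte list summed to between 2.31 and 8.38 CPM, of which CD68, a lysosomal protein of macrophages, held between 2.22 and 8.38 CPM, while PTPRC and CD3E stayed at or below 0.0514 CPM. The endothelial markers summed to at most 0.0853 CPM and the erythroid markers to at most 0.264 CPM. The fibroblast markers COL1A1, DCN and LUM summed to between 1.66 and 22.8 CPM.

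Sequence upstream of the start site was taken from RefSeq (GRCh38.p14) for 24 of the 33 genes, and the 250 bases before the start of each RefSeq gene are shown for POLR3GL and POLR2D, which were up-regulated at 12 h, and for POLR2B and POLR3B, which were down-regulated. They lie at chr1:145964440-145964689 on the plus strand, chr2:127858156-127858405 on the minus strand, chr4:56978646-56978895 on the plus strand and chr12:106357498-106357747 on the plus strand, and each is written 5′ to 3′ in the direction of its gene. The RefSeq start of POLR2B lies inside the gene as GENCODE gives it, so its window is within the GENCODE gene, while the other 3 windows end at the GENCODE start. Capitals mark the GC box (GGGCGG or its complement CCGCCC) and the CCAAT box (CCAAT or its complement ATTGG).
POLR3GL: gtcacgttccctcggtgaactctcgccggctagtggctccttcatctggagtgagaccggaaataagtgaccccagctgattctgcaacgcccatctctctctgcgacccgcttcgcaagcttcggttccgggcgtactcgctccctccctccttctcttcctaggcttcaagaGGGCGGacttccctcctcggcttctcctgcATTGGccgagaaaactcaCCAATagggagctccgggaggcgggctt
POLR2D: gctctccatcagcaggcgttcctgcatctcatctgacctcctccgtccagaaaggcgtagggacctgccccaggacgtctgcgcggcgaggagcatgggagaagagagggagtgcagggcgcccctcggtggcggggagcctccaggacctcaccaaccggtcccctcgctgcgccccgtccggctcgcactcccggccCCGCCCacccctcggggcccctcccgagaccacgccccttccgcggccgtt
POLR2B: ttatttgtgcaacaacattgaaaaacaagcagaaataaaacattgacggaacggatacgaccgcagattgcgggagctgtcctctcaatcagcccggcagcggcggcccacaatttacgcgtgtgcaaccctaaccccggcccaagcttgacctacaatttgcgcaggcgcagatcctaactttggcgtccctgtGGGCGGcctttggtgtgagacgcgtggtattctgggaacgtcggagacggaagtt
POLR3B: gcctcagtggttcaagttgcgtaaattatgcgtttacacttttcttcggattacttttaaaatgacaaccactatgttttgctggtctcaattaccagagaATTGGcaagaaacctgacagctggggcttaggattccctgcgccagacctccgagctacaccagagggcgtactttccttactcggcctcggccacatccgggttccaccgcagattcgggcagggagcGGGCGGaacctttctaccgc
All 4 windows held a GC box, both the pair that rose and the pair that fell. Over the 24 genes with sequence, 16 (66.7%) had a GC box on either strand, against 56.8% of 15251 RefSeq promoters of the same length. The CCAAT box was in 5 (20.8%) against 34.8%, and the ETS core CCGGAAG in 7 (29.2%) against 12%. An E-box (CACGTG) was in 3 (12.5%) against 7.86%, a TATA box (TATAAA) in 1 against 9.16%, and the NRF1 motif in 1 against 1.47%. These are matches of letters and do not mark bound sites.

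To ask whether treatment altered the polymerase genes as a group, treated and untreated cells were compared within each line and time. At 12 h in A2780, 3 genes were up-regulated and 18 down-regulated, a called share of 63.6% where 54.8% of all tested genes were called. Down-regulated genes made up 54.5% of the 33, where 26.1% of all tested genes were called lower and 28.6% higher. The median log2 FC of the 33 genes was -0.35, against 0.015 over all tested genes. In A2780cis at 12 h, 7 were up-regulated and 16 down-regulated, with 59.9% of all tested genes called, 31% higher and 28.9% lower. The median there was -0.18, against 0.037. Over the 13881 tested protein-coding genes alone, 27.8% were higher and 30.8% lower in A2780, with a median of -0.026. In A2780cis 27.9% of them were higher and 34.7% lower, with a median of -0.045. The polymerases were not alike at 12 h. Of the 6 genes of Pol I alone, 0 were higher and 4 lower in A2780 (median -0.57), and 1 and 5 in A2780cis (-0.50). For the 10 of Pol III alone it was 1 and 6 (-0.62), and 1 and 7 (-0.56). For the 10 of Pol II alone it was 2 and 3 (-0.16), and 3 and 2 (0.055). For the 5 shared by all it was 0 and 3 (-0.34), and 2 and 1 (0.20). Scaled by library size alone, the median of all tested genes in A2780 at 12 h moved to 0.24, 70.7% of all called genes were higher in place of 52.3%, and 5 polymerase genes were up- and 14 down-regulated.

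At 6 h fewer of them were called. In A2780, 3 were up-regulated and 8 down-regulated, which is 33.3% of the 33 and near the 29.4% called among all tested genes (16% higher and 13.4% lower). In A2780cis, 4 were up-regulated and 7 down-regulated, also 33.3%, beside 30.7% of all tested genes (14.4% higher and 16.3% lower). Of the 13881 tested protein-coding genes alone, 35.3% were called in A2780 (19.4% higher and 16% lower). In A2780cis 35.5% of them were called (15.3% higher and 20.2% lower), so the polymerase genes lay slightly below that share in both lines. The count in A2780cis at 6 h rested on single libraries: without replicate 2 of the treated cells, 2 genes were higher and 3 lower, and without replicate 3, 2 were higher and 4 lower. In A2780 at 6 h, 1 gene was higher without replicate 1 of either the untreated or the treated cells, and 5 were lower without replicate 2 of the untreated cells.

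The counts on polymerase genes were a small share of each library. In A2780 they made up 0.260% ± 0.00940 (SD, n = 3) of all counts in untreated cells at 12 h and 0.229% ± 0.00832 in treated cells. In A2780cis the share was 0.261% ± 0.00499 in untreated and 0.235% ± 0.00809 in treated cells. At 6 h all 4 groups lay between 0.247% and 0.252% on average.

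**Figure D1:**
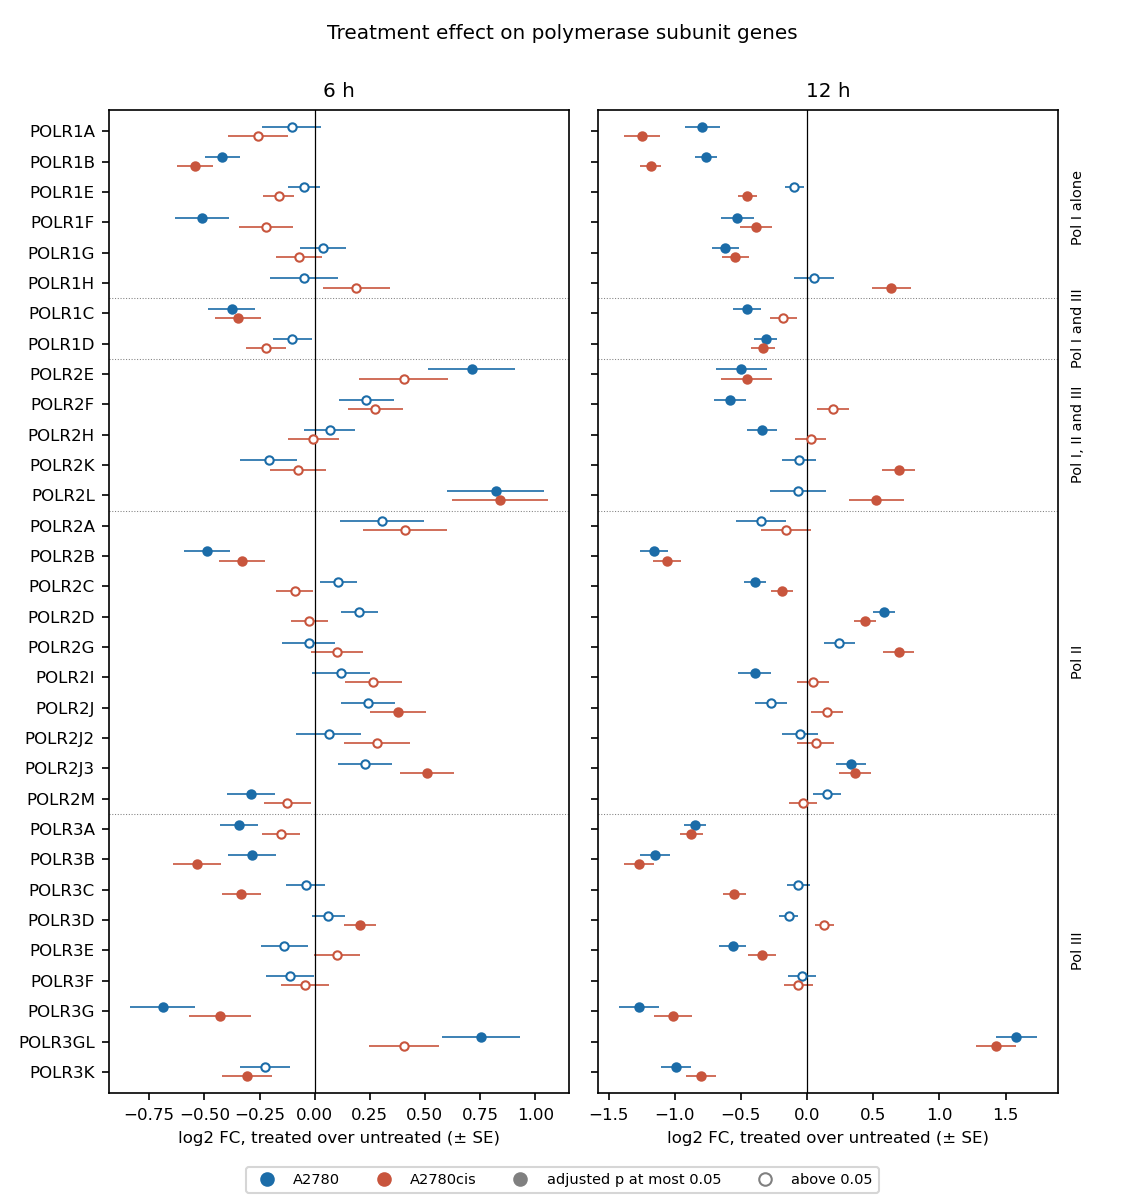
Log2 FC of treated over untreated cells (horizontal axis, whiskers ± SE) of 32 of the 33 polymerase genes, by polymerase, at 6 h (left) and 12 h (right), in A2780 (blue) and A2780cis (red). Filled points passed an adjusted p of 0.05, and the 2 panels have different scales. At 12 h POLR3GL lies farthest to the right, at 1.58 and 1.43, and POLR3G in A2780 and POLR3B in A2780cis farthest to the left.

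Among the Pol I genes, POLR1A encodes the largest subunit (chr2:86020216-86106155, GRCh38). In A2780 at 12 h its 3 untreated libraries held 151, 160.2 and 170.2 CPM and its treated libraries 83.2, 99.9 and 94.6 CPM. All treated libraries were lower than all untreated ones (log2 FC -0.79 ± 0.13, adjusted p = 1.64e-05). In A2780cis the untreated libraries held 102, 123 and 130.3 CPM and the treated ones 49.4, 55.5 and 44.9 CPM (log2 FC -1.25 ± 0.14, adjusted p = 1.90e-08), again without overlap. At 6 h the gene was not called, with log2 FC -0.10 ± 0.13 in A2780 and -0.26 ± 0.14 in A2780cis.

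POLR1B (chr2:112541915-112579818) encodes the second-largest subunit of Pol I and was the member with the smallest adjusted p in 3 of the 4 treatment comparisons. In A2780cis at 12 h it went from 198, 187 and 168 CPM to 87.5, 79.3 and 76.9 CPM (log2 FC -1.18 ± 0.082, adjusted p = 6.36e-12). The treated cells of A2780 held 96.8, 91.8 and 90.8 CPM, against 158, 159.5 and 157 CPM in the untreated ones (log2 FC -0.76 ± 0.082, adjusted p = 1.83e-08). At 6 h it was already lower in both lines, with log2 FC -0.42 and -0.54. The 6 h libraries read 211, 202 and 189 CPM untreated and 145, 152 and 154 CPM treated in A2780 (adjusted p = 3.91e-04). In A2780cis at 6 h they read 259, 256 and 226 CPM and 181, 163 and 164 CPM (adjusted p = 1.46e-05). Untreated and treated libraries of POLR1B overlapped in none of the 4 comparisons.

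The other Pol I subunits had smaller log2 FC at 12 h. POLR1F, a subunit of the Pol I stalk, had log2 FC -0.53 ± 0.12 in A2780 and -0.39 ± 0.12 in A2780cis at 12 h, both called. The latter call was lost without replicate 1 of the untreated cells (-0.31). It was also lost when the GC content of transcripts was corrected for and centred in each library. At 6 h POLR1F was already called lower in A2780 (log2 FC -0.51 ± 0.12, adjusted p = 0.00276) and not in A2780cis (-0.22 ± 0.12, adjusted p = 0.175). POLR1G, which with POLR1E forms a heterodimer of Pol I, fell in both lines at 12 h (-0.62 and -0.54). Its exons share 49.8% of their length with ERCC1 on the opposite strand, and the strand setting of the counting is not given in the sources used here, so reads of the pair may be mixed. POLR1E was called in A2780cis (log2 FC -0.45 ± 0.072, adjusted p = 5.86e-06) and not in A2780 (log2 FC -0.10 ± 0.072, adjusted p = 0.257). POLR1H, a small zinc-binding subunit, went the other way in A2780cis, from 35.3, 27.3 and 27.7 CPM to 49.3, 36.98 and 54.4 CPM (log2 FC 0.64 ± 0.15, adjusted p = 6.00e-04). POLR1H shares 24.5% of its exonic length with an antisense pseudogene.

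POLR1C and POLR1D, the assembly pair that Pol I and Pol III have in common, had smaller log2 FC at 12 h than both catalytic subunits of Pol I. POLR1D was called lower at 12 h in both lines (-0.31 in A2780 and -0.33 in A2780cis), though not in A2780 with library size alone (-0.093). POLR1C was called lower in A2780 at 12 h (log2 FC -0.46 ± 0.11, adjusted p = 6.99e-04) and at 6 h in both lines (-0.38 and -0.35), and in A2780cis at 12 h its log2 FC was -0.18 ± 0.10, which was not called. The POLR1C call at 6 h was lost in A2780 without replicate 2 of the untreated cells (log2 FC -0.29), and in A2780cis without replicate 2 or 3 of the treated cells (-0.31 and -0.32) or replicate 3 of the untreated cells (-0.27).

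POLR2A (chr17:7484366-7514616) encodes the largest subunit of Pol II, whose repeated tail couples transcription to RNA processing. Its libraries were spread widely, with 169.5, 242 and 115 CPM in the untreated A2780cis cells at 6 h and 232, 223 and 243 CPM in the treated ones. At 12 h A2780 had 225, 254 and 311 CPM untreated and 179, 222 and 220.4 CPM treated, and A2780cis 205, 279 and 283 and 201, 289 and 195 CPM. The gene was not called in any of the 4 comparisons, with log2 FC 0.31 ± 0.19 and 0.41 ± 0.19 at 6 h and -0.35 ± 0.19 and -0.16 ± 0.19 at 12 h. When the GC content of transcripts was corrected for in each library, POLR2A was called lower at 12 h in both lines, with log2 FC -0.55 in A2780 (adjusted p = 0.00543) and -0.38 in A2780cis (adjusted p = 0.0446). With the same correction centred in each library, its log2 FC was -0.45 (adjusted p = 0.0195) and -0.25 (adjusted p = 0.181).

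POLR2B (chr4:56977722-57031158), the second-largest subunit of Pol II, was called lower in treated cells at both times and in both lines. In A2780 at 12 h it went from 305, 298 and 282 CPM to 147, 123 and 126 CPM (log2 FC -1.16 ± 0.11, adjusted p = 1.34e-09). In A2780cis the values were 332, 284 and 279 CPM untreated and 159, 126 and 146 CPM treated (log2 FC -1.06 ± 0.11, adjusted p = 4.72e-09). Every treated library lay below every untreated one. At 6 h A2780 went from 358, 385 and 326 to 229.8, 252 and 279 CPM (log2 FC -0.49 ± 0.11, adjusted p = 0.00106), and A2780cis had log2 FC -0.33 ± 0.11 (adjusted p = 0.0190). The call in A2780cis at 6 h was lost without replicate 2 or 3 of the treated cells (log2 FC -0.32 and -0.27) or replicate 3 of the untreated cells (-0.28).

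POLR2D and POLR2G encode the stalk of Pol II, and both had higher levels in treated cells at 12 h. POLR2D went from 106, 101 and 115 CPM to 169, 158 and 157 CPM in A2780 (log2 FC 0.58 ± 0.083, adjusted p = 1.65e-06). In A2780cis it went from 101, 101 and 95.7 CPM to 145, 123 and 136 CPM (log2 FC 0.44 ± 0.083, adjusted p = 6.83e-05), and in neither line did the groups overlap. POLR2D had fractional counts, from reads that match several places, in 62.5% of libraries. It shares 6.68% of its exonic length with a processed pseudogene on the same strand. POLR2G rose in A2780cis, from 102, 89.1 and 90.04 CPM to 158, 120.2 and 176 CPM (log2 FC 0.69 ± 0.12, adjusted p = 1.71e-05), while in A2780 its log2 FC of 0.24 ± 0.12 was not called. The difference between the lines for POLR2G was 0.45 ± 0.17, which just missed the threshold (adjusted p = 0.0513).

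The paralogs POLR2J, POLR2J2 and POLR2J3 belong to a near-identical family, whose members had fractional counts in 91.7% to 95.8% of libraries, as reads that match several places were split, so their separate values are uncertain. POLR2J3 was called higher at 12 h in A2780, from 26.9, 24.4 and 24.5 CPM to 27.2, 33.6 and 34.2 CPM (log2 FC 0.33 ± 0.12, adjusted p = 0.0181), and in A2780cis (log2 FC 0.36 ± 0.12, adjusted p = 0.00980). In A2780 this call was lost without replicate 2 or 3 of the treated or of the untreated cells, with log2 FC between 0.27 and 0.30. In A2780cis it was lost without replicate 2 of the treated or of the untreated cells, at 0.27 and 0.31. Without the filter on low counts the 12 h call was lost in both lines, at 0.31 in each. At 6 h POLR2J3 in A2780cis went from 19.6, 14.6 and 17.3 to 22.96, 24.9 and 25.4 CPM (log2 FC 0.51 ± 0.12, adjusted p = 0.00270). POLR2J itself was called in A2780cis at 6 h, from 25.1, 18.5 and 23.4 to 25.6, 31.3 and 30.2 CPM (log2 FC 0.38 ± 0.13, adjusted p = 0.0235), a call lost without replicate 2 or 3 of the treated cells (log2 FC 0.32 and 0.35) or replicate 2 of the untreated cells (0.26). POLR2J2 was called in none of the treatment comparisons, and its log2 FC lay between -0.055 and 0.28.

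Of the remaining Pol II genes, POLR2C, partner of the POLR2J product in assembly, was lower at 12 h in A2780 (-0.40) and, close to the threshold, in A2780cis (-0.19, adjusted p = 0.0484). The latter call was lost without replicate 2 of the treated cells (-0.11) or replicate 1 or 2 of the untreated cells (-0.16 and -0.20). It was also lost with library size alone (-0.090), without the filter on low counts (-0.24) and with the compared libraries alone (-0.20). POLR2I, a small zinc-binding subunit, was called lower in A2780 at 12 h (log2 FC -0.40 ± 0.13, adjusted p = 0.0105), and 69% of its exonic length lies under an unverified transcript on the opposite strand. The POLR2I call was lost without replicate 3 of the untreated cells (log2 FC -0.34) and with library size alone (-0.17). POLR2M, which encodes a Pol II-associated protein, was called at 6 h in A2780 (log2 FC -0.29 ± 0.11, adjusted p = 0.0456). That call was lost without replicate 1 or 2 of the treated or of the untreated cells (log2 FC between -0.34 and -0.18), and POLR2M shares 20.3% of its exonic length with GCOM1 on the same strand.

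**Figure D2:**
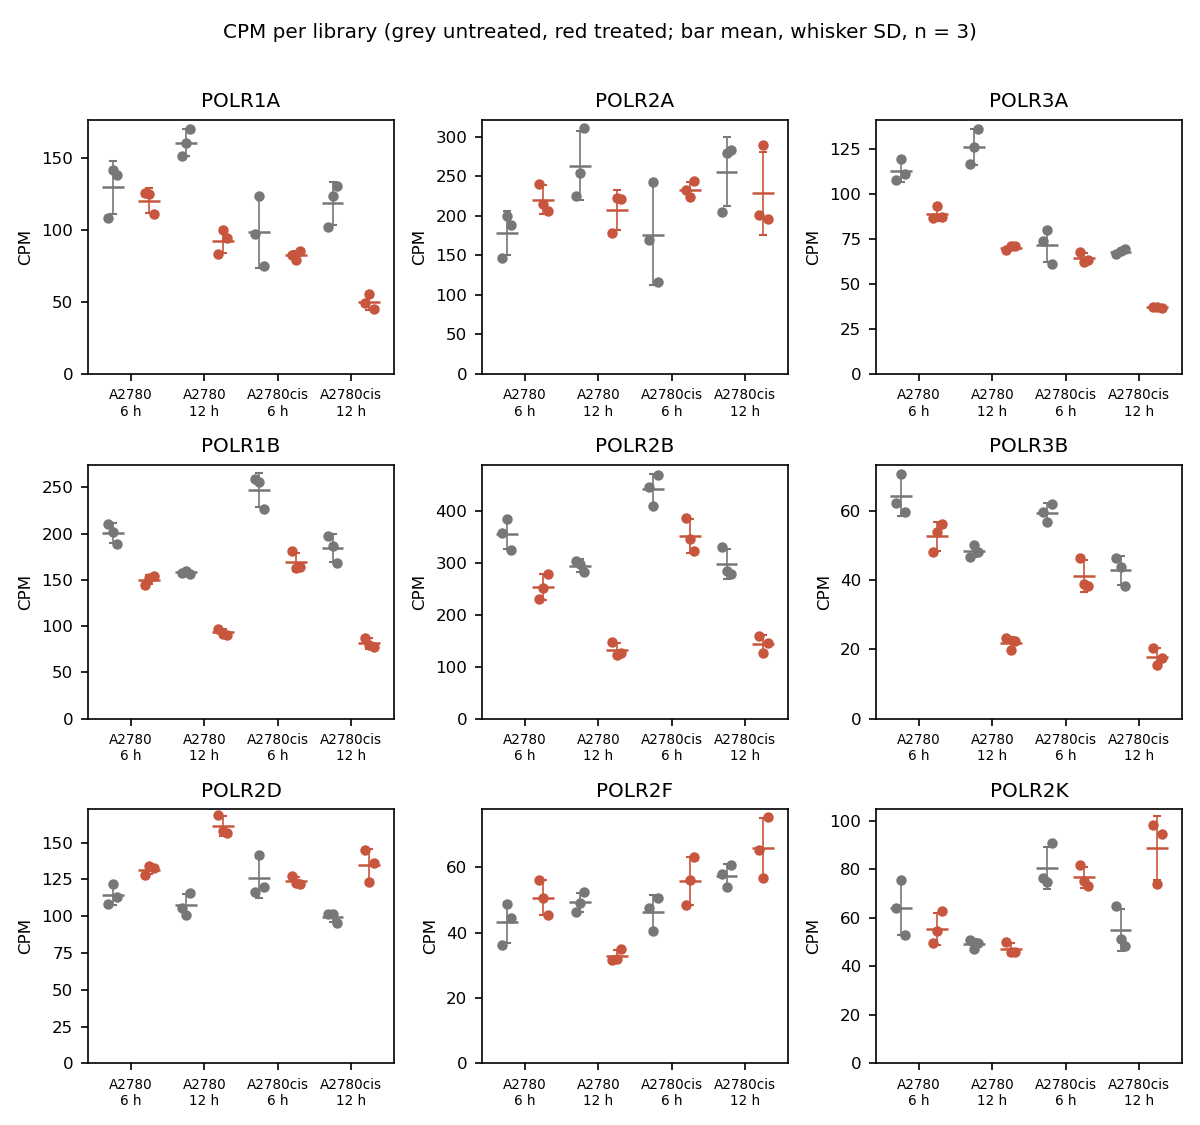
CPM per library (vertical axis, starting at 0) of POLR1A, POLR2A, POLR3A, POLR1B, POLR2B, POLR3B, POLR2D, POLR2F and POLR2K in untreated (grey) and treated (red) cells of each line and time; points are libraries, bars means and whiskers SD (n = 3). In the second-largest subunits of the middle row, the 12 h treated libraries lie below all untreated libraries of the same line and time, while the POLR2A groups overlap in A2780cis.

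In Pol III, POLR3A (chr10:77953148-78029522) encodes the largest subunit. In A2780 at 12 h it went from 117, 126 and 136 CPM to 69.1, 70.9 and 70.8 CPM (log2 FC -0.85 ± 0.085, adjusted p = 5.89e-09). In A2780cis it went from 66.5, 68.2 and 69.4 CPM to 37.2, 37.4 and 36.5 CPM (log2 FC -0.88 ± 0.087, adjusted p = 3.72e-09). The treated libraries of A2780 at 12 h lay close to the level of untreated A2780cis cells. At 6 h POLR3A was called in A2780 (log2 FC -0.34 ± 0.085, adjusted p = 0.00362), and in A2780cis its log2 FC was -0.15 ± 0.087, not called.

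POLR3B (chr12:106357748-106510198), the second-largest subunit of Pol III, went from 46.8, 50.1 and 48.1 CPM to 23.3, 19.9 and 22.3 CPM in A2780 (log2 FC -1.15 ± 0.11, adjusted p = 3.32e-09). In A2780cis the libraries held 46.4, 43.96 and 38.3 CPM untreated and 20.5, 15.4 and 17.5 CPM treated (log2 FC -1.27 ± 0.11, adjusted p = 5.31e-10). At 6 h A2780cis went from 59.7, 56.8 and 62.1 to 46.6, 38.9 and 38.2 CPM (log2 FC -0.53 ± 0.11, adjusted p = 5.90e-04). In A2780 at 6 h POLR3B lay at the threshold (log2 FC -0.29 ± 0.11, adjusted p = 0.0493), and the call was lost without replicate 1 or 2 of the treated or of the untreated cells, with log2 FC between -0.31 and -0.21.

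Further Pol III subunits followed the same direction at 12 h. POLR3K, which acts in transcript cleavage and termination, had log2 FC -0.99 ± 0.11 in A2780 and -0.80 ± 0.11 in A2780cis. POLR3E was called lower in both lines (-0.56 and -0.34), although in A2780cis its libraries overlapped and the call was lost with library size alone (-0.23). POLR3C, part of the initiation module, was lower in A2780cis at 6 h, from 39.5, 40.8 and 42.8 to 33.8, 31.98 and 32.04 CPM (log2 FC -0.33 ± 0.087, adjusted p = 0.00511), and at 12 h (log2 FC -0.55 ± 0.088, adjusted p = 6.65e-06). The 6 h call of POLR3C was lost without the filter on low counts (log2 FC -0.31). POLR3F and POLR3D were not called at 12 h in either line, with log2 FC between -0.14 and 0.13.

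POLR3G (chr5:90471748-90514557) and POLR3GL (chr1:145964690-145978848) encode alternative forms of a single Pol III subunit, of which each enzyme carries one. POLR3G is known to be high in pluripotent and tumour cells, and POLR3GL is the more widely expressed form. In A2780 at 12 h POLR3G went from 31.3, 29.5 and 24.05 CPM to 12.8, 11.4 and 10.98 CPM (log2 FC -1.27 ± 0.15, adjusted p = 8.29e-08). POLR3GL went from 8.91, 7.41 and 8.53 CPM to 26.3, 24.5 and 23.7 CPM (log2 FC 1.58 ± 0.15, adjusted p = 3.41e-09). Neither gene's groups overlapped, and the directions were opposite.

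The same was seen in A2780cis at 12 h. POLR3G went from 53.3, 47.04 and 40.5 CPM to 25.02, 25.5 and 19.2 CPM (log2 FC -1.01 ± 0.14, adjusted p = 1.02e-06), and POLR3GL from 9.34, 10.8 and 9.50 CPM to 28.7, 21.8 and 29.1 CPM (log2 FC 1.43 ± 0.15, adjusted p = 1.01e-08). At 6 h in A2780, POLR3G fell from 44.8, 31.2 and 35.4 to 19.96, 21.7 and 27.4 CPM (log2 FC -0.69 ± 0.15, adjusted p = 9.24e-04) and POLR3GL rose from 5.89, 5.20 and 6.91 to 7.85, 11.8 and 10.8 CPM (log2 FC 0.75 ± 0.18, adjusted p = 0.00230). In A2780cis at 6 h POLR3G was called lower (log2 FC -0.43 ± 0.14, adjusted p = 0.0209), whereas POLR3GL, with 10.3, 9.13 and 14.1 CPM untreated and 13.95, 16.9 and 13.8 CPM treated, was not (log2 FC 0.40 ± 0.16, adjusted p = 0.0555). The POLR3G call there was lost without replicate 2 or 3 of the treated or of the untreated cells, with log2 FC between -0.42 and -0.38.

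Divided by exonic length, the level of POLR3GL was below that of POLR3G in all 12 untreated libraries. The exonic length was 4024 bases for POLR3G and 1811 for POLR3GL, and the canonical transcripts have 3290 and 1178 bases. The size of the ratio therefore depends on the length used. The ratio of POLR3GL to POLR3G in CPM per kb was 0.66 ± 0.118 (SD, n = 3) in untreated A2780 at 12 h and 4.71 ± 0.126 in treated cells. In A2780cis it was 0.473 ± 0.0729 untreated and 2.61 ± 0.735 treated. At 6 h the ratio was 0.365 ± 0.0712 and 0.984 ± 0.188 in A2780, and 0.392 ± 0.0804 and 0.707 ± 0.0984 in A2780cis. POLR3GL shares 21.1% of its exonic length with a readthrough gene on the same strand, so a part of its counts could belong to that gene.

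**Figure D3:**
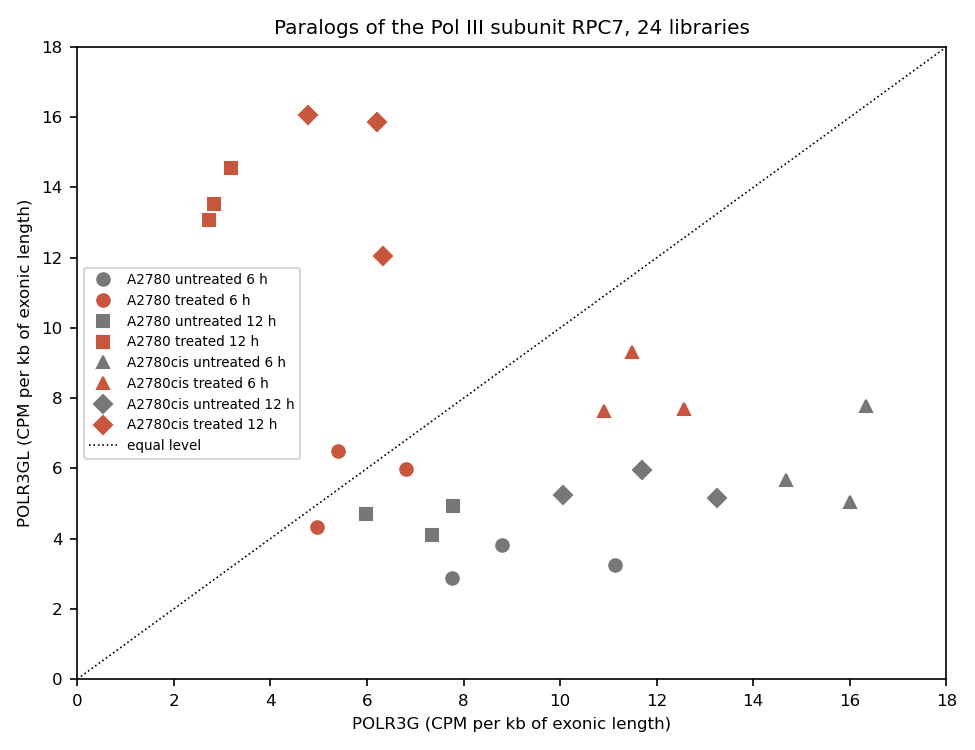
Level of POLR3GL against POLR3G in each of the 24 libraries (CPM per kb of exonic length), untreated in grey and treated in red, with a symbol for each line and time; the dotted line marks equal levels. The 12 untreated libraries lie below the line and the 6 libraries treated for 12 h above it.

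The 5 subunits common to all polymerases did not move together. POLR2L, a small zinc-binding subunit, was called higher at 6 h in A2780, from 19.6, 33.6 and 35.9 to 68.5, 47.9 and 40.1 CPM (log2 FC 0.82 ± 0.22, adjusted p = 0.00656), and in A2780cis, from 36.1, 20.2 and 38.7 to 47.9, 57.6 and 64.8 CPM (log2 FC 0.84 ± 0.22, adjusted p = 0.00467). In A2780 the call was lost without replicate 1 of the untreated cells (log2 FC 0.58) or of the treated cells (0.57). At 12 h POLR2L was called in A2780cis (log2 FC 0.52 ± 0.21, adjusted p = 0.0302), a call lost without replicate 2 or 3 of the treated cells or replicate 1 or 2 of the untreated cells (log2 FC between 0.44 and 0.48), and its log2 FC in A2780 was -0.067 ± 0.21. POLR2L shares 22.8% of its exonic length with CD151 on the opposite strand.

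POLR2E, a subunit near the incoming DNA, went from 34.2, 54.1 and 60.2 CPM to 100.5, 83.2 and 58.96 CPM in A2780 at 6 h (log2 FC 0.71 ± 0.20, adjusted p = 0.00829), with overlap between the groups. Without replicate 1 of the untreated cells its log2 FC was 0.50 and without replicate 1 of the treated cells 0.52, neither of them called. At 12 h POLR2E was called lower in A2780 (log2 FC -0.50 ± 0.19, adjusted p = 0.0303) and in A2780cis (log2 FC -0.46 ± 0.19, adjusted p = 0.0436). In A2780 that call was lost without replicate 1 of the treated cells (log2 FC -0.36) or replicate 2 or 3 of the untreated cells (-0.47 and -0.49). In A2780cis it was lost without replicate 1 or 3 of the treated cells (-0.43 and -0.44) or replicate 2 or 3 of the untreated cells (-0.47 and -0.31). With library size alone the 12 h call of POLR2E was lost in both lines (-0.27 in A2780 and -0.35 in A2780cis).

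POLR2F and POLR2K, which belong to all polymerases as well, are described with the difference between the lines. POLR2H had log2 FC -0.34 ± 0.11 in A2780 at 12 h, called except with library size alone (-0.12), and 0.026 ± 0.11 in A2780cis, not called. The difference for POLR2H did not pass the test (0.37 ± 0.16, adjusted p = 0.101).

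To ask whether platinum-sensitive and platinum-resistant cells responded differently, the treatment effect in A2780 was subtracted from that in A2780cis. At 6 h no polymerase gene passed the edgeR test, where 3.07% of all tested genes did (0.692% higher and 2.38% lower in A2780cis). A single member had an unadjusted p under 0.05 at 6 h, and the DESeq2 Wald test called 0 as well. At 12 h 3 genes had a higher and 3 a lower log2 FC in A2780cis, together 18.2%, below the 23.7% of all tested genes (9.7% higher and 14% lower).

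POLR2F fell in A2780 at 12 h, from 46.4, 49.2 and 52.3 CPM to 31.7, 32.01 and 35.1 CPM (log2 FC -0.58 ± 0.12, adjusted p = 2.65e-04). In A2780cis it had 57.8, 53.8 and 60.7 CPM untreated and 65.2, 56.8 and 75.5 CPM treated, with overlap (log2 FC 0.20 ± 0.12, not called), and the difference was 0.78 ± 0.17 (adjusted p = 0.00195). POLR2K rose in A2780cis, from 64.7, 51.3 and 48.5 CPM to 98.1, 73.8 and 94.3 CPM (log2 FC 0.69 ± 0.13, adjusted p = 3.93e-05). A2780 had 50.8, 47.3 and 49.7 CPM untreated and 50.2, 45.7 and 45.7 CPM treated, with overlap, and the difference was 0.76 ± 0.18 (adjusted p = 0.00357). Both are small subunits common to the 3 enzymes.

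The difference of 0.58 ± 0.21 for POLR1H (adjusted p = 0.0454) had the largest adjusted p of the 6 called, and it was lost when any of 9 of the 12 libraries compared was left out, with log2 FC between 0.45 and 0.63. The A2780 libraries of POLR1H at 12 h held 27.6, 24.6 and 26.5 CPM untreated and 28.1, 26.8 and 26.8 CPM treated. In the other direction, POLR3C differed by -0.49 ± 0.12 (adjusted p = 0.00573). Its libraries at 12 h held 31.4, 32.5 and 33.2 CPM untreated and 29.99, 32.4 and 30.4 CPM treated in A2780, and 34.96, 30.1 and 29.2 and 20.6, 21.6 and 22.3 CPM in A2780cis. POLR1B differed by -0.42 ± 0.12 (adjusted p = 0.0100), with a fall in both lines that was deeper in A2780cis. POLR1E differed by -0.36 ± 0.10 (adjusted p = 0.0129), from 73.5, 73.4 and 73.7 to 67.4, 69.4 and 69.3 CPM in A2780 and from 122, 111 and 108 to 86.1, 78.1 and 84.5 CPM in A2780cis, and this call was lost with the compared libraries alone (-0.30) or without the filter (-0.38). The number of genes with a higher log2 FC in A2780cis rose from 3 to 7 without replicate 2 of the treated A2780cis cells at 12 h.

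The effect at 12 h was then set against that at 6 h within each line, a comparison that shares its libraries with those above. In A2780, 3 genes had a higher and 16 a lower log2 FC at 12 h than at 6 h, where 23.7% of all tested genes were called, 10.7% higher and 13% lower. The lower ones with the smallest adjusted p were POLR3B (difference -0.86 ± 0.16, adjusted p = 3.24e-04), POLR3K (-0.77 ± 0.16, 0.00127) and POLR2F (-0.82 ± 0.17, 0.00153). POLR3K at 12 h held 52.3, 55.1 and 55.1 CPM untreated and 27.8, 26.3 and 27.7 CPM treated, against 57.5, 68.6 and 62.2 and 56.5, 51.6 and 52.96 CPM at 6 h. The 3 higher ones were POLR3GL (0.83 ± 0.24, adjusted p = 0.0124), POLR2D (0.38 ± 0.12, 0.0207) and POLR2M (0.44 ± 0.15, 0.0378). Of these 3, POLR3GL kept its call when each compared library was left out in turn, and POLR2D and POLR2M did not. Untreated means fell from 58.4 CPM at 6 h to 47.0 CPM at 12 h for POLR2M and from 114 to 107 CPM for POLR2D. They rose from 6.00 to 8.28 CPM for POLR3GL. Treated means went from 47.8 to 52.2 CPM for POLR2M, 132 to 161 CPM for POLR2D and 10.1 to 24.8 CPM for POLR3GL. The number of higher genes fell to 1 without replicate 2 of the untreated cells or replicate 1 of the treated cells, at either time, and the number of lower genes to 10 without replicate 2 of the untreated cells at 12 h.

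In A2780cis, 4 genes had a higher and 11 a lower log2 FC at 12 h, with 24% of all tested genes called, 10.3% higher and 13.6% lower. POLR3A (-0.72 ± 0.12, adjusted p = 1.60e-04), POLR1B (-0.64 ± 0.11, 2.93e-04) and POLR1A (-0.99 ± 0.19, 5.95e-04) led the lower ones. POLR3GL (1.02 ± 0.22, adjusted p = 0.00152), POLR2K (0.77 ± 0.18, 0.00296) and POLR2D (0.46 ± 0.12, 0.00606) led the higher ones. All 6 kept their call when each compared library was left out in turn. The untreated cells changed between 6 h and 12 h as well, which enters these differences. Mean POLR2K went from 80.7 to 54.8 CPM untreated and from 76.6 to 88.8 CPM treated. POLR2D went from 126 to 99.5 CPM untreated and from 124 to 135 CPM treated. For POLR3GL the means were 11.2 and 9.87 CPM untreated and 14.9 and 26.5 CPM treated.

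Untreated cells of the lines were also compared, in the libraries that serve as controls above. At 6 h 9 polymerase genes were higher and 5 lower in A2780cis, 42.4% against 47.9% of all tested genes (25% higher and 22.9% lower). At 12 h 9 were higher and 4 lower, 39.4% against 52.9% (25.4% higher and 27.5% lower). The count of lower genes at 6 h fell from 5 to 2 without replicate 3 of untreated A2780, and to 3 without replicate 2 of either line.

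POLR1E was higher in A2780cis at 6 h, with 87.9, 86.6 and 86.1 CPM in A2780 and 153, 153 and 159.8 CPM in A2780cis (log2 FC 0.84 ± 0.072, adjusted p = 2.16e-10), and at 12 h (log2 FC 0.63 ± 0.072, adjusted p = 3.57e-08). POLR3G was higher as well, at 6 h by 0.76 and at 12 h by 0.73 on the log2 scale (adjusted p = 6.52e-05 and 8.22e-05). POLR1D was lower, with 107, 109.7 and 102 CPM in A2780 and 57.2, 53.4 and 52.4 CPM in A2780cis at 12 h (log2 FC -0.97 ± 0.090, adjusted p = 7.39e-10) and log2 FC -0.68 ± 0.091 at 6 h. POLR3A was lower as well (log2 FC -0.66 at 6 h and -0.89 at 12 h), without overlap between the lines at either time. POLR1A was lower at both times too (-0.40 and -0.44), but the 6 h call was lost without replicate 2 or 3 of untreated A2780 (log2 FC -0.33 and -0.35) or replicate 3 of untreated A2780cis (-0.23). At 12 h the POLR1A call was lost without replicate 1 of untreated A2780cis (-0.34).

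Per kb of exonic length, the levels of the 33 genes in untreated A2780 at 12 h ranged from 2.68 CPM for POLR3C to 52.03 CPM for POLR2G. The largest subunits stood at 31.5 CPM per kb for POLR2A, 8.15 for POLR1A and 7.99 for POLR3A. The second-largest subunits stood at 50.1 for POLR2B, 17.6 for POLR1B and 10.1 for POLR3B. In both classes the Pol II gene had the highest level. The exonic length joins all transcripts of a gene and can be far longer than the canonical transcript. It was 19694 against 12480 bases for POLR1A, 15800 against 6610 for POLR3A and 12068 against 3777 for POLR3C. The order of genes therefore depends on the length used, and POLR1A and POLR3A cannot be ranked from these values. After 12 h with the drug, POLR2B stood at 22.4, POLR1B at 10.3 and POLR3B at 4.58 CPM per kb.

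Properties of the transcripts that did not enter the choice of genes were set beside the log2 FC. At 6 h the log2 FC of the 33 genes rose with the GC content of the canonical transcript, with a Spearman rho of 0.723 in A2780 and 0.612 in A2780cis. Over 13881 protein-coding genes the rho was 0.541 and 0.37, so the trend was not confined to the polymerase genes. At 12 h it was 0.0625 and 0.252 over the 33 genes. Longer transcripts had lower log2 FC at 12 h (rho -0.442 in A2780 and -0.597 in A2780cis over the 33 genes, -0.109 and -0.306 over all protein-coding genes). At 6 h the rho with length was -0.331 and -0.419 over the 33 genes, and -0.212 and -0.256 over all protein-coding genes. With the span of the gene on the chromosome, the rho over the 33 genes was -0.431 and -0.478 at 6 h. At 12 h the rho with span was -0.385 and -0.524. Over all protein-coding genes the rho with span was -0.348 and -0.401 at 6 h, and -0.225 and -0.381 at 12 h. The points of each rho share the same libraries.

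The dependence of counts on GC content also differed between the libraries. Fitted by loess, the log2 level of transcripts with 60% GC relative to those with 40% lay between -1.01 and -0.49 in untreated A2780 at 6 h, and between -0.43 and 0.074 in treated cells. In A2780cis at 6 h it lay between -0.52 and -0.35 untreated and between -0.19 and 0.19 treated. At 12 h the ranges overlapped in both lines, -0.20 to 0.12 against -0.066 to 0.32 in A2780 and 0.17 to 0.66 against 0.52 to 0.93 in A2780cis. A correction for this trend was made after seeing the data, and the cause of the 6 h changes was not tested. With this trend corrected, the 6 h log2 FC in A2780 was 0.45 for POLR2L, 0.34 for POLR2E, -0.42 for POLR3G and 0.73 for POLR3GL, all still called, whereas POLR3B (-0.18) and POLR2M (-0.071) were not. In A2780cis at 6 h POLR3GL was then called (0.38, adjusted p = 0.0484), and POLR2J and POLR2J3 were not (0.18 and 0.25).

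**Figure D4:**
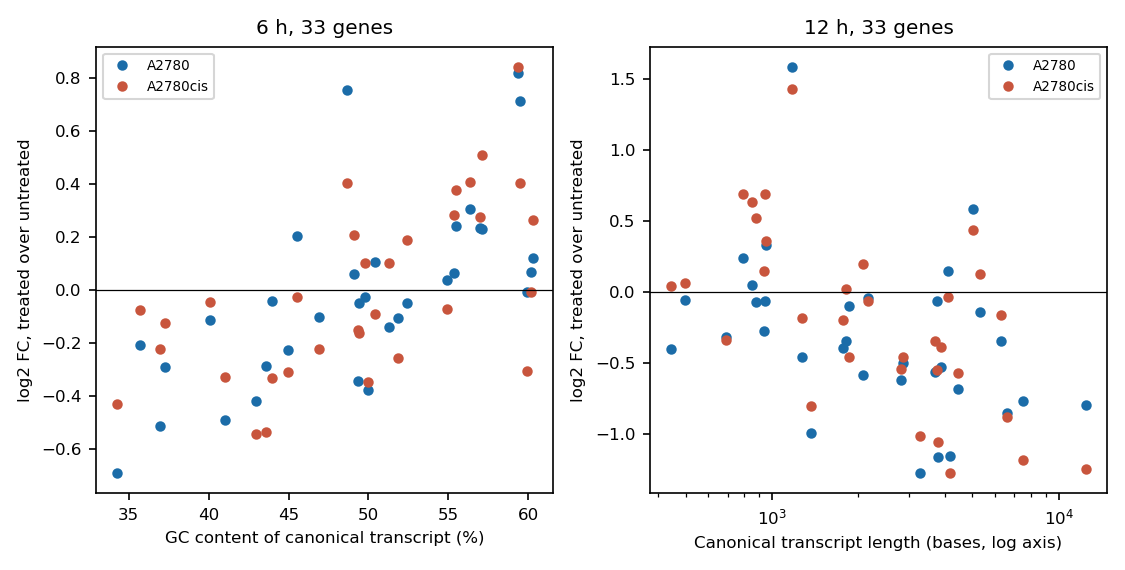
Log2 FC of treated over untreated cells (vertical axis) of the 33 polymerase genes against the GC content of the canonical transcript at 6 h (left, percent) and against its length at 12 h (right, bases on a log axis), in A2780 (blue) and A2780cis (red). The log2 FC rises with GC content at 6 h (Spearman rho 0.723 and 0.612) and falls with length at 12 h (-0.442 and -0.597).

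Genes that work with the polymerases were counted in the same comparisons. Of the Pol I factors, 11 of 12 listed genes passed the filter. At 12 h 1 was up- and 8 were down-regulated in A2780 (median log2 FC -0.57), and 0 and 9 in A2780cis (median -0.80). The lower genes were 72.7% and 81.8% of the list. For these and the following lists at 12 h, the shares over all tested genes were 28.6% higher and 26.1% lower in A2780 and 31% higher and 28.9% lower in A2780cis, with medians of 0.015 and 0.037. Over protein-coding genes alone they were 27.8% higher and 30.8% lower in A2780, with a median of -0.026. In A2780cis they were 27.9% higher and 34.7% lower, with a median of -0.045. NCL, the nucleolar protein nucleolin, changed from 2017 ± 167 to 867 ± 96.2 CPM, log2 FC -1.22, adjusted p = 7.65e-11 in A2780. In A2780cis TCOF1, the treacle protein that helps ribosomal gene transcription, changed from 237 ± 38.9 to 98.3 ± 9.39 CPM, log2 FC -1.27, adjusted p = 6.15e-08.

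Of 26 Pol II general factors, 1 rose and 16 fell in A2780 at 12 h (median log2 FC -0.31), and 3 and 16 in A2780cis (median -0.43). The lower genes were 61.5% of the list in A2780 and 61.5% in A2780cis, beside 26.1% and 28.9% of all tested genes. CDK7, the kinase of the general factor TFIIH, had the smallest adjusted p of this list in both lines and changed from 35.3 ± 4.65 to 17.1 ± 1.94 CPM, log2 FC -1.05, adjusted p = 4.31e-08 in A2780. In A2780cis CDK7 changed from 32.2 ± 3.32 to 13.6 ± 0.862 CPM, log2 FC -1.24, adjusted p = 2.32e-09.

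Of 17 Pol III factors, 1 rose and 12 fell in A2780 (median -0.54), and 2 and 10 in A2780cis (median -0.55). The lower genes were 70.6% of the list in A2780 and 58.8% in A2780cis, beside 26.1% and 28.9% of all tested genes. BDP1, a subunit of the initiation factor TFIIIB, changed from 247 ± 43.1 to 104 ± 1.60 CPM, log2 FC -1.25, adjusted p = 2.71e-07 in A2780. GTF3C2, a subunit of TFIIIC, changed from 101 ± 6.38 to 43.4 ± 2.27 CPM, log2 FC -1.21, adjusted p = 2.57e-11 in A2780cis.

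Among the 13 genes of polymerase assembly and import, 3 rose and 8 fell in A2780 (median -0.39), and 4 and 3 in A2780cis (median -0.042). In A2780cis 53.8% of this list was called, near the 59.9% of all tested genes, and in A2780 84.6%, beside 54.8%. Of protein-coding genes alone, 62.6% were called in A2780cis and 58.6% in A2780. RPAP2, a phosphatase of the Pol II tail that also acts in import, was among those that rose, from 39.1 ± 4.02 to 78.1 ± 3.64 CPM, log2 FC 1.00, adjusted p = 1.44e-08 in A2780. URI1, a prefoldin-like assembly protein, changed from 136 ± 9.97 to 62.4 ± 8.13 CPM, log2 FC -1.12, adjusted p = 4.13e-10 in A2780cis.

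RNAs that Pol III makes were counted as well, 11 of 19 listed passing the filter, although short RNAs are poorly kept by total RNA libraries of this kind. In A2780cis at 12 h 10 of them were higher and 0 lower, and in A2780 2 and 0. Of all tested genes, 31% were higher and 28.9% lower in A2780cis, and 28.6% and 26.1% in A2780. At 6 h 7 were higher in A2780cis and 0 were called in A2780, where 14.4% and 16% of all tested genes were higher. By the test of the difference between the lines, however, 0 of the 11 were called at 6 h, beside 3.07% of all tested genes. At 12 h that test called 7 of the 11 higher in A2780cis and 0 lower, beside 9.7% and 14% of all tested genes. In untreated cells at 12 h, 8 of the 11 were lower in A2780cis than in A2780 (median log2 FC -0.91), where 27.5% of all tested genes were lower. RPPH1, the RNA of ribonuclease P, changed from 0.311 ± 0.0811 to 15.4 ± 1.40 CPM, log2 FC 5.57, adjusted p = 1.55e-05 in A2780cis at 12 h. That untreated level rests on few counts. RPPH1 had the highest log2 FC of the list there, whose median was 2.12, against -0.34 in A2780. In A2780 the same RNA went from 2.77 ± 2.74 to 1.18 ± 1.23 CPM, log2 FC -1.39, adjusted p = 0.192, which was not called, with an SD close to its mean in each group.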

How the data were processed

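Total RNA of A2780 and A2780cis cells was made into stranded libraries and sequenced, 3 libraries in each of 8 groups. The authors aligned the reads with STAR 2.5.2b to GRCh38.p7 and deposited estimated counts per gene from featureCounts, where a read with several matches was split into fractions, so that 9.5% to 12.8% of entries in a library were not whole. The strand setting is not given in the sources used here, and paired or single reads are stated differently in the labels and the methods. The counting settings listed in the supplement let a read be assigned to several overlapping genes. Library totals of 11077368 to 21901406 counts limit the precision of low genes.

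Counts were rounded, genes filtered with filterByExpr (minimum count 10, minimum total 15) and scaled with TMM, and 20240 genes were fitted with edgeR 4.0.16 (R 4.3.3), with 1 coefficient per group over 24 libraries and 16 residual degrees of freedom. The quasi-likelihood test was two-sided, with Benjamini-Hochberg adjusted p called at 0.05. The standard error was taken from the F statistic. The code was tested on simulated data. Gene symbols, positions and exonic lengths came from GENCODE (56948 of 63299 IDs matched).

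Per comparison, up to 3 genes in each direction with the smallest adjusted p were described in full, with POLR1A, POLR2A, POLR3A, the POLR3G pair and the POLR2J family always included. Members and lists were chosen with earlier results of these data known, and the printed promoters with the values known. 1 of the 33 genes entered the counts but is not reported by name here. The alternatives were DESeq2 size factors, library size alone, no filter, no rounding, a replicate block, the compared libraries alone, the DESeq2 1.42.0 Wald test and leaving out each library. A loess correction for GC content over 19908 genes (span 0.5), and the same centred in each library, were added after seeing the data.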

Additional observations from a re-analysis of the deposited data

Results flagged for a closer look

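The treatment effect at 12 h differed between the lines by the edgeR test of the difference itself, A2780cis minus A2780, in 6 polymerase genes. The difference in log2 FC was 0.78 for POLR2F, 0.76 for POLR2K and 0.58 for POLR1H. It was -0.49 for POLR3C, -0.42 for POLR1B and -0.36 for POLR1E. POLR2F, POLR2K, POLR3C and POLR1B kept their calls under every alternative run.

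Within A2780 the effect at 12 h differed from that at 6 h by 0.83 for POLR3GL, 0.38 for POLR2D and 0.44 for POLR2M, and by -0.86 for POLR3B, -0.77 for POLR3K and -0.82 for POLR2F. Within A2780cis it differed by 1.02 for POLR3GL, 0.77 for POLR2K and 0.46 for POLR2D, and by -0.72 for POLR3A, -0.64 for POLR1B and -0.99 for POLR1A. These were the genes with the smallest adjusted p in each direction.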

How the results depend on the processing

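The counts of called polymerase genes moved by more than 1.5 times under a few settings. With library size alone, 5 genes were higher in A2780 at 6 h and 5 at 12 h (3 and 3 in the main test), 7 in A2780cis at 6 h (4), 9 were lower in A2780 at 12 h against 6 h (16), and 8 were lower between the untreated lines at 6 h (5). With the compared libraries alone, 7 genes had a higher effect in A2780cis at 12 h (3) and 5 were higher between the untreated lines at 6 h (9). The DESeq2 Wald test gave 6 higher effects in A2780cis at 12 h (3), and no filter gave 1 higher at 12 h against 6 h in A2780 (3). Both GC corrections, added after seeing the data, gave 10 higher effects in A2780cis at 12 h (3). Uncentred, 11 were lower in A2780cis at 6 h (7), and between the untreated lines 14 were higher at 6 h (9) and 17 at 12 h (9), where it moved the median of all genes to 0.14 and 0.15. The centred form was run for that reason and gave 8 lower at 12 h (4). The cause was not tested.

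Leaving out each library in turn, between 1 and 3 were higher and 5 and 8 lower in A2780 at 6 h, 2 and 3 higher and 16 and 19 lower at 12 h. In A2780cis it was 2 to 4 and 3 to 7 at 6 h, and 5 to 7 and 14 to 16 at 12 h. The difference between the lines gave 0 and 0 at 6 h, and 2 to 7 and 3 to 4 at 12 h. The times differed in 1 to 3 and 10 to 15 genes in A2780 and in 3 to 5 and 8 to 11 in A2780cis, and the untreated lines in 6 to 10 and 2 to 6 at 6 h and 6 to 8 and 3 to 4 at 12 h.

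Over the fits that left out a library, POLR2J2 at 12 h lay between -0.13 and 0.040 in A2780, and in A2780cis between -0.030 and 0.13. Directions turned for the POLR2J family, none of them called in the main test. With GC corrected and then centred, POLR2J2 in A2780 at 6 h was -0.16 and -0.14 and POLR2J3 -0.056 and -0.035. POLR2J2 in A2780 at 12 h was 0.17 with library size alone, 0.020 without replicate 1 of the untreated cells and 0.040 without replicate 1 of the treated cells. In A2780cis at 12 h POLR2J2 was -0.030 without replicate 2 of the untreated cells and -0.15 and -0.019 with the GC corrections, and POLR2J was -0.067 with the uncentred one. Library size alone moved the share of higher genes among all called genes from 47.0% to 61.5% in A2780cis at 6 h, from 41.0% to 27.0% in the difference between the lines at 12 h and from 45.1% to 69.8% in A2780 at 12 h against 6 h, and no filter from 43.1% to 30.3% in A2780cis at 12 h against 6 h.

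With the replicate number as a block, none of 145 values of single genes changed its call, and 4 genes were higher and 8 lower in A2780cis at 6 h. Same-numbered libraries had correlations between -0.29 and 0.32, of mixed sign, so the numbers were not taken to pair samples. In all 4 treatment comparisons and under every alternative, POLR1B kept its call as lower.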
